A study of Drosophila melanogaster with 2 samples.

Results

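The regions described here are GATAd peaks that lie inside introns and away from promoters in whole Drosophila melanogaster larvae. They come from the reproducible list of the authors, which kept peaks by irreproducible discovery rate (IDR), an estimate of how well the replicates rank the same peaks. A peak qualified when its summit was over 1 kb from the transcription start site (TSS) of every protein-coding transcript, inside a protein-coding transcript, and in no UTR or coding exon. The rule used position only, and 250 of 1205 peaks met it, a share of 20.7% (Wilson 95% interval 18.6 to 23.1%). The remainder of the list comprised 841 promoter peaks within 1 kb of a TSS, 103 intergenic peaks and 11 peaks in UTRs or coding exons.

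All values come from 1 group, larvae of a line with a transgene for GATAd fused to green fluorescent protein (GFP) at its C terminus. Per the labels these were wandering larvae of the third instar, males and females pooled, at an unrecorded age, and the tagged protein was precipitated with an antibody against GFP. The labels give 2 biological replicates, numbered 2 and 3. No other genotype, stage or tissue and no control library was analysed here, and which cells drive the transgene is not given in the sources used here. In whole larvae, binding in few cells and weak binding in many cells cannot be told apart.

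GATAd belongs to the GATA family of zinc-finger transcription factors, which recognise the word WGATAR (W is A or T, R is A or G). In flies, GATA factors are known for roles in the gut, fat body, blood and heart, and the cofactor Ush binds several of them. Introns of Drosophila regulatory genes often carry enhancers, the short elements that control transcription at a distance, and first introns are a common place for them.

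As examples of strong intronic peaks, the dm6 sequence beside or at the summit is given for 10 of them. These are not the 10 strongest, and were chosen mostly among peaks with a WGATAR match. The match nearest to the summit is in capitals. Each stretch has 30 bases, is read 5′ to 3′ on the strand of the match, and comes from the NCBI Release 6 genome.
CG11050, chr2L:6612717-6612746, minus strand: tgtaaaactaaaTGATAAaagcaatacaaa
norpA, chrX:4325064-4325093, plus strand: ccactgtacttgAGATAAaagttctccgtt
osa, chr3R:17704337-17704366, plus strand: tgggcggcctttTGATAGgatattataaag
Tlk, chrX:3742216-3742245, plus strand: tagttttaatcaAGATAGattttttattac
Eip75B, chr3L:18011850-18011879, minus strand: tacaagtattatAGATAAaaacacttttag
Eip78C, chr3L:21253912-21253941, minus strand: aacattctaattAGATAGttagtgttgttt
ush, weaker peak, chr2L:485946-485975, minus strand: tgcaatcgccagAGATAAgcgggcagactg
CHES-1-like, chrX:7698363-7698392, plus strand: atataatgcattTGATAAttgttataaaat
CG32486, no match, chr3L:3060779-3060808, plus strand: tattagaggctagagagtcaataagcaaaa
ush, stronger peak, no match, chr2L:481025-481054, plus strand: ctagattagatgcagatctctgaaaagttt
The last 2 stretches are the bases at the summit itself, because no match lay within 100 bp on either strand. They are shown because a strong intronic peak could come with or without the word. Of the 25 strongest intronic peaks, 11 had a match within 100 bp, and CHES-1-like above ranks 29 and is not among the 25. A match shown need not be at the summit. It lay 95.5 bp away in norpA, 72.5 bp in the weaker ush peak, 58.5 bp in osa and 55.5 bp in Eip75B.

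The strength of a peak is given as the authors' signal, the deposited value of column 7, which was used to rank peaks within a list. The 250 intronic peaks ran between 43.9 and 492, with a median of 62.3 (order-statistic 95% interval 58.6 to 64.7) and a middle range of 49.6 to 83.6. Promoter peaks of the same list had a median of 67.6 (65.2 to 70.4), so the interval of the intronic median ended just below that of the promoters. Intergenic peaks had a median of 60.5. Intronic peaks were a smaller share of the strong end of the list than of the weak end. They made up 52 of the 302 strongest peaks (17.2%, 13.4 to 21.9%), and 77 of the 301 weakest (25.6%, 21.0 to 30.8%).

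**Figure D1:**
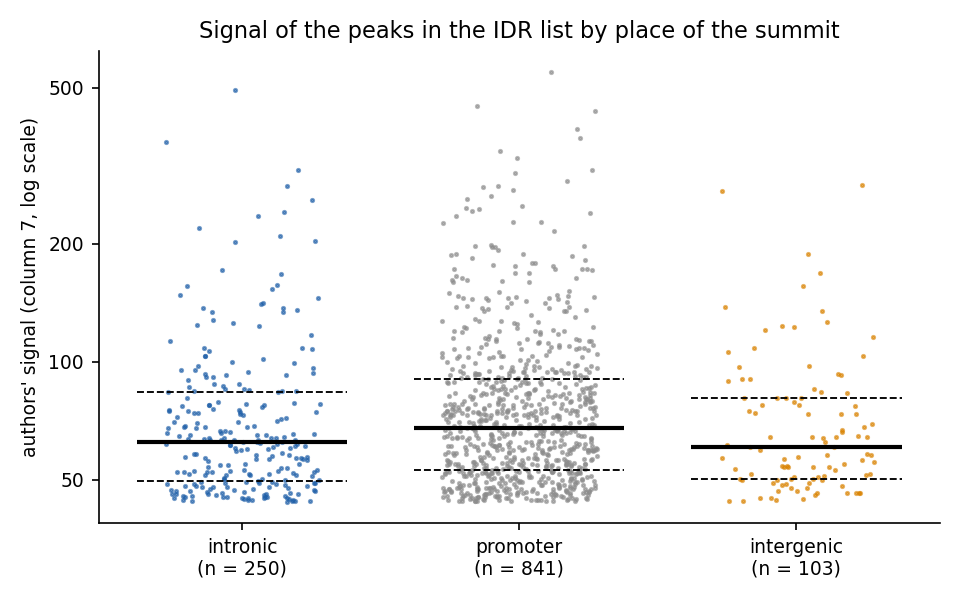
Authors' signal of each peak in the IDR list (log scale) by place of the summit, with solid lines at the median and dashed lines at the quartiles. The intronic median of 62.3 lay between the intergenic median of 60.5 and the promoter median of 67.6, and the strongest intronic peak reached 492.

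Among the authors' 30000 pooled candidates, which include background by design, 11933 met the position rule and 2.10% of these entered the IDR list. The share was 11.3% for candidates at promoters and 4.02% for all candidates. Intronic positions made up 20.7% of the list, against 40.6% of the 28795 candidates outside it.

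The strongest intronic peak lay in CG11050, with a signal of 492 in the pooled list, 270 in replicate 2 and 219 in replicate 3. It sat in the shortest host intron, a second intron of 140 bp, at 1028 bp from the gene's TSS. CG32486 followed with a pooled signal of 362, and 185 in replicate 2 and 172 in replicate 3. CG32772 had 308 pooled, 184 in replicate 2 and 125 in replicate 3. These 3 genes are named here only by their CG numbers. The peak in norpA, which encodes the phospholipase C of phototransduction, had 280 pooled, 131 in replicate 2 and 150 in replicate 3.

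The next peaks include some in genes of chromatin and transcription control, described together here after their values were seen. The first intron of ush, the gene for the GATA cofactor of the Friend of GATA family, held 2 peaks. Its stronger peak had 258 pooled, 130 in replicate 2 and 171 in replicate 3. Its weaker peak had 156 pooled, 84.0 in replicate 2 and 67.9 in replicate 3. The stronger peak lay 1352 bp from the TSS of another gene, cbt, and 4820 bp from that of ush. That cbt TSS is itself inside the ush intron that holds the peak. In osa, which encodes a subunit of the Brahma chromatin remodelling complex, the peak had 241 pooled, 131 in replicate 2 and 108 in replicate 3. The osa summit also lay in an exon of a non-coding gene, 715 bp from the nearest annotated TSS. In Trl, the gene for the GAGA factor, the peak had 137 pooled, 67.3 in replicate 2 and 73.7 in replicate 3. In Tlk, which encodes a Tousled-like kinase linked to chromatin assembly, the strongest of 3 peaks had 219 pooled, 96.4 in replicate 2 and 128 in replicate 3.

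Other strong peaks lay in genes of varied function. The peak in Zw, the gene for glucose-6-phosphate dehydrogenase of the pentose phosphate pathway, had 210 pooled, 108 in replicate 2 and 98.4 in replicate 3. The one in wit, a type II BMP receptor gene, had 141 pooled, 80.0 in replicate 2 and 60.7 in replicate 3. The one in chif, the fly relative of the DNA replication activator Dbf4, had 141 pooled, 69.6 in replicate 2 and 75.7 in replicate 3, and lay 1001 bp from the TSS, closest of all members to the 1 kb limit. The remaining hosts among the 25 strongest peaks were CG3726, osp, smash, CG12769, CG13917, CG8034, CG6051, babos, CG42238, kirre, Raf, Eip75B and Eip78C, with signals between 134 and 236. All 25 also overlapped one of the 1205 strongest peaks of each replicate, and 15 lay in a first intron.

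At the 1 kb limit, chif at 1001 bp, CG11050 at 1028 bp and Csk at 1033 bp were just inside, with signals of 141, 492 and 48.1. Intronic peaks of Ndae1 at 999 bp, Gyg at 992 bp and CG31635 at 987 bp were just outside, with signals of 73.3, 96.4 and 52.6.

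Replicate agreement was measured as overlap, by at least 1 bp, with one of the 1205 strongest peaks of each replicate. Of the 250 intronic peaks, 124 overlapped one in both replicates (49.6%, 43.5 to 55.8%). The share was 57.1% for promoter peaks, a difference of -7.47 percentage points (Newcombe 95% interval -14.5 to -0.46). In replicate 2 only, 70 intronic peaks had a partner, against 43 in replicate 3 only and 13 in neither. The agreement followed strength: all 52 intronic peaks among the 302 strongest of the list were in both, and 5 of the 77 among the 301 weakest. Strength here is the signal pooled from the same replicates, so this trend is partly built into the measure. At that weak end, 6.49% of intronic and 4.30% of promoter peaks were in both.

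For the 244 intronic peaks with a candidate in each replicate, the signals of both replicates were loosely related across peaks, with Spearman's rho of 0.321 and Pearson's r of 0.495 on the log2 scale. These describe peaks that share 2 libraries, and peaks are not independent replicates. The median log2 ratio, replicate 3 over replicate 2, was -0.26 across peaks (SD 0.77), and 48 peaks lay over 2-fold from that median. The extremes toward replicate 2 included dy, a gene named for its wing phenotype, with 36.7 in replicate 2 and 6.86 in replicate 3. InR, the insulin receptor gene, had 63.0 in replicate 2 and 12.1 in replicate 3. ImpL2, which encodes a secreted insulin-binding protein, had 34.1 in replicate 2 and 7.68 in replicate 3. The extremes toward replicate 3 included MESR3, with 15.2 in replicate 2 and 51.5 in replicate 3. Hipk, a protein kinase gene, had 13.9 in replicate 2 and 41.6 in replicate 3, and mam, the Notch coactivator gene mastermind, had 11.6 in replicate 2 and 34.3 in replicate 3. Also among the extremes were arr toward replicate 3, the second peak of CG6051 toward replicate 2, and CG1677 with 1 peak on each side. The lowest candidate signal was 9.56 in replicate 2 and 6.42 in replicate 3. The ratios of dy, ImpL2, CG1677, mam and arr rest on values near these floors. Peaks with no candidate in 1 replicate, 3 for each, have no ratio and could not be ranked. The 2 peaks of CG6051 overlapped by 185 bp and matched the same candidate of replicate 2, so they are not separate observations there.

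**Figure D2:**
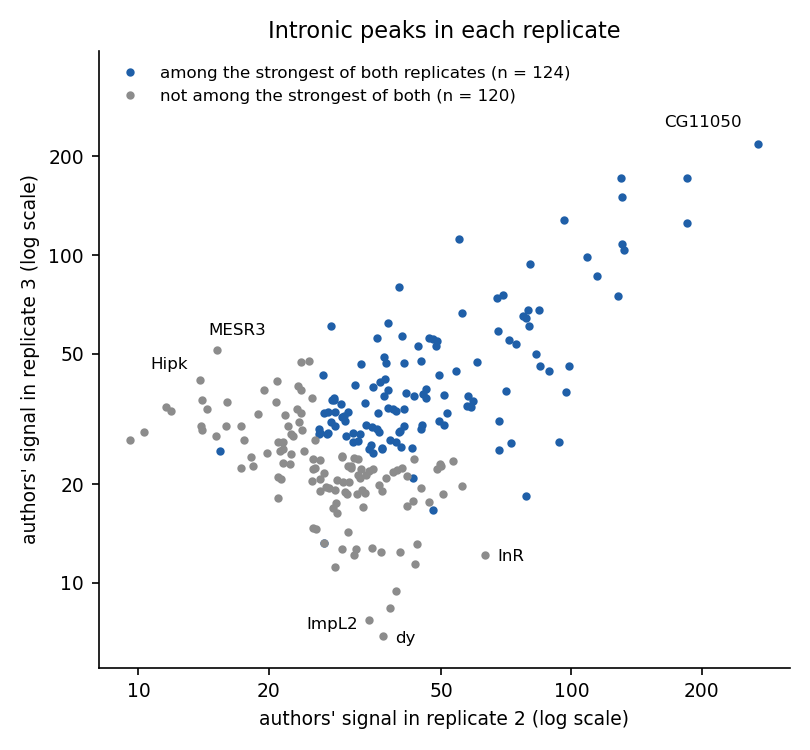
Authors' signal of each intronic peak in replicate 2 (x axis) and replicate 3 (y axis), both on log scales, for the 244 peaks with a value in each. Blue peaks were among the 1205 strongest of both replicates by overlap. Strong peaks such as CG11050 lay high in both replicates, while InR, dy and ImpL2 were low in replicate 3 and MESR3 and Hipk low in replicate 2.

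Intronic peaks lay mostly in early introns. To set each place against the sequence available, all intronic positions that met the rule were counted as eligible sequence, 48.6 Mb or 36.3% of the chromosome arms. First introns held 131 of the 250 peaks (52.4%, 46.2 to 58.5%) and 29.6% of the eligible sequence, or 9.09 peaks per Mb. Second introns held 73 peaks (29.2%) and 26.5% of the sequence, the third intron 17 peaks (6.8%) and 12.4%, and later introns 29 peaks (11.6%) and 31.5%. The density in later introns was 1.89 per Mb. By the choice of transcript, 173 peaks were in the first intron of at least 1 transcript and 99 in the first intron of every transcript over the summit.

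The density also fell with distance from the nearest protein-coding TSS, at 10.2 peaks per Mb between 1 and 2 kb, 6.46 between 2 and 5 kb, 5.69 between 5 and 10 kb and 2.36 beyond 10 kb. First introns were denser than other introns in each of these 4 bins. Between 1 and 2 kb the densities were 14.6 per Mb in first introns and 5.90 in others, with 46 and 19 peaks. Beyond 10 kb they were 4.97 and 1.88 per Mb, with 15 and 31 peaks. The median distance to the nearest TSS was 3991 bp, with a middle range of 1928 to 7769 bp. For 193 peaks that TSS belonged to the host gene and for 57 to another gene.

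**Figure D3:**
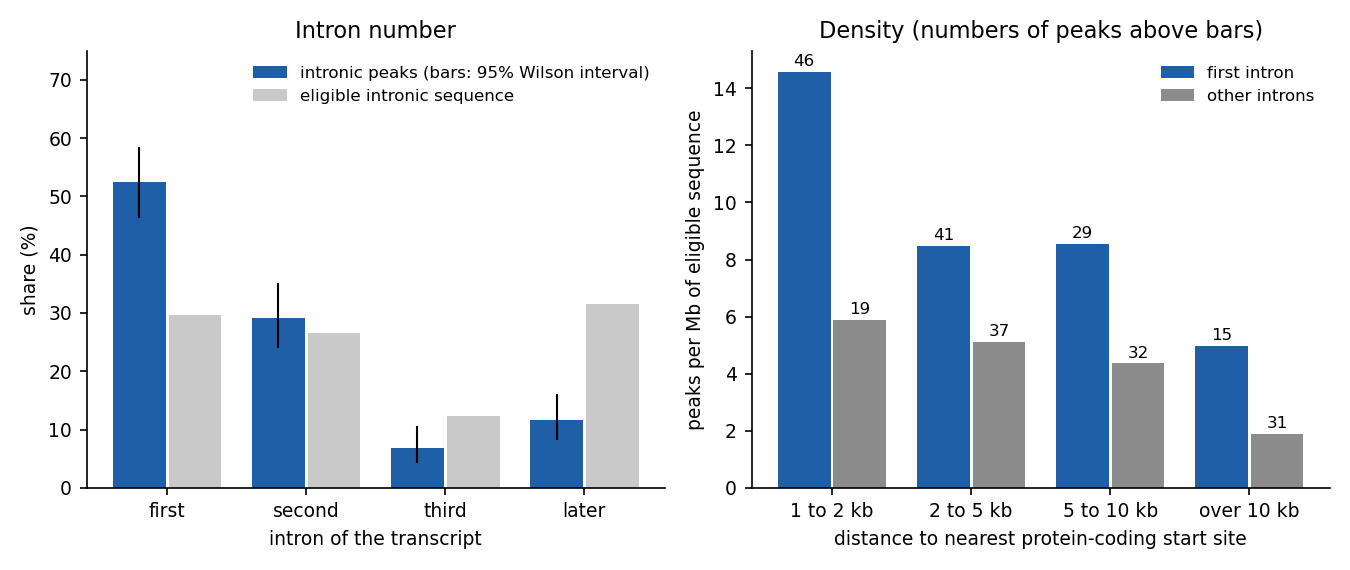
Left, share of the 250 intronic peaks (blue, with Wilson 95% intervals) and of eligible intronic sequence (grey) by intron number. Right, peaks per Mb of eligible sequence by distance to the nearest protein-coding TSS, in first introns (blue) and others (grey), with the number of peaks above each bar. First introns held 52.4% of peaks and 29.6% of the sequence, and were denser than other introns in all 4 distance bins.

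The host introns were long, with a median of 15019.5 bp (13185 to 17971 bp). This is close to the length of 15379 bp at which eligible sequence itself is divided equally, while the median over all 30205 introns with eligible sequence was 91 bp. The 3 shortest host introns were in CG11050 at 140 bp, in Arp2, an actin-nucleating complex gene, at 893 bp, and in CG32772 at 1054 bp. The longest was in Ptp61F, a tyrosine phosphatase gene, at 126467 bp, followed by an intron of 117679 bp in kirre that held 3 peaks. In peaks per Mb, introns of 10 to 20 kb were densest at 6.25 and introns over 50 kb least dense at 3.68. Within the intron, the summit lay at a median of 43.1% of the length from the 5' end. Introns between 5' UTR exons held 102 peaks (40.8%) and 31.2% of the eligible sequence, and introns of the coding part 147 peaks (58.8%) and 67.4%.

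The X chromosome held 69 intronic peaks (27.6%, 22.4 to 33.4%) and 18.3% of the eligible sequence, or 7.75 peaks per Mb. The other large arms ranged between 3.82 per Mb on 3L and 5.30 on 2L. X held 17.2% of promoter peaks, 10.4 points less than of intronic peaks (4.53 to 16.7), and 16.4% of the intronic candidates outside the list, 11.2 points less (6.01 to 17.1). In the strongest peaks of each replicate taken alone, the X share of intronic peaks was 26.6% in replicate 2 and 24.7% in replicate 3. Sexes were pooled in both replicates. Chromosome 4 held no intronic peak and 1.08% of the eligible sequence, and a count of 0 allows a share of up to 1.2% if the limit is set at 3 counts of 250, or 1.51% by the Wilson interval.

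The 250 peaks lay in 204 host genes, which is 2.97% of the 6880 genes with eligible sequence. The share followed gene size, at 0.128% of genes with under 1 kb of eligible sequence, 14% of those with 20 to 50 kb and 25.5% of those with over 50 kb. Of the hosts, 43 also had an IDR peak within 1 kb of a TSS of their own (21.1%), against 727 of the 6676 genes without an intronic peak (10.9%), a difference of 10.2 points (5.09 to 16.3). Among genes with over 20 kb of eligible sequence the shares were 21 of 112 hosts (18.8%) and 36 of 530 others (6.79%).

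At the top of the host genes, 10 held 3 or more intronic peaks, 33 peaks in all, and 6 of these genes were on X. The gene sbb, which encodes the nuclear zinc-finger protein Scribbler, held 5 in its first intron, with signals between 56.4 and 83.6, of which 4 were among the strongest of both replicates. Raf, the kinase gene between Ras and MEK, held 4 in its second intron, with signals of 48.8, 134, 78.0 and 103 along the gene. In replicate 2 these peaks had 27.1, 88.6, 61.0 and 70.5. In replicate 3 the first had 19.5, the second 44.4 and the last 38.4, and the remaining one had no candidate. The Raf peaks of 78.0 and 103 were nearest to the TSS of CG14050, at 8329 and 3686 bp. Their distances to the nearest Raf TSS were 21989 and 18200 bp. CHES-1-like, a forkhead transcription factor gene, held 3 peaks of 68.3, 124 and 113 in 12.9 kb of eligible sequence, and all 3 were among the strongest of both replicates. It was the densest of the 10 genes, at 23.3 peaks per 100 kb, and with sbb was one of 2 that also had a promoter peak.

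The other 7 genes with 3 peaks each were Tlk, kirre, CG12535, Snoo, heca, shn and CG1677. In kirre, a cell adhesion gene of myoblast fusion, the 3 peaks spanned 12185 bp of a gene with 294.8 kb of eligible sequence. The gene CG32795 lies within the span of kirre, and its 2 peaks of 60.1 and 49.1 are counted under CG32795. The signals of the 3 kirre peaks were 50.2, 65.7 and 134, and only the 134 peak was strong in both replicates by that measure. In shn, the zinc-finger gene schnurri of the BMP pathway, none of the 3 peaks of 58.1, 52.3 and 44.6 was. In CG1677 none of the 3 peaks of 47.2, 45.5 and 45.0 was, and the nearest TSSs of these were those of unc-119 and brk. Over the 10 genes, 16 of the 33 peaks were strong in both replicates by that measure.

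**Figure D4:**
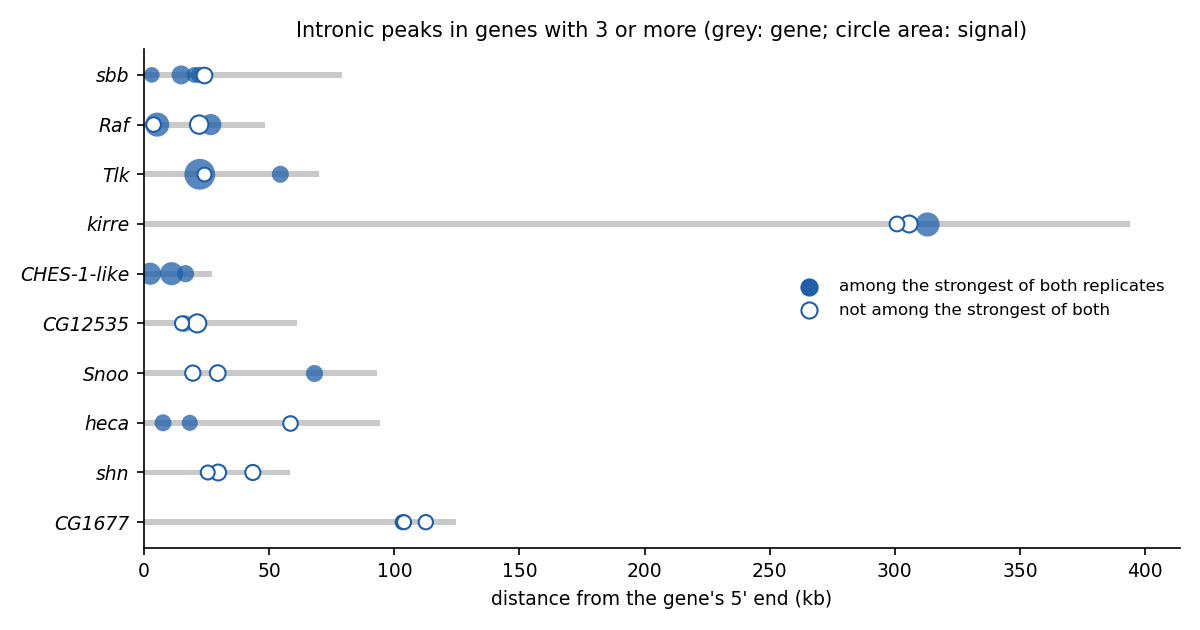
Intronic peaks of the 10 genes with 3 or more, by distance from the gene's 5' end (kb). Grey bars are the genes, circle area is proportional to the authors' signal, and filled circles overlapped one of the 1205 strongest peaks in each replicate. The 5 peaks of sbb lay toward the 5' end, the 3 of CHES-1-like were spread over its short gene, and the 3 of kirre lay together far inside its gene.

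Nuclear receptor genes and genes of the response to ecdysone, the steroid hormone that drives the larval to pupal transition, were taken as 1 list. Of its 23 genes with eligible sequence 7 held an intronic peak (30.4%), against 2.97% of all genes, and the density was 14.3 peaks per Mb, against 5.14 over all genes. These genes held a median of 23.4 kb of eligible sequence, against 0.611 kb over all genes. At the density of genes of like size 3.16 peaks would fall in them, and there were 10. The lists, here and below, were written with earlier results of these data known, so such an excess is not independent support. With the strongest peaks of 1 replicate alone, 7 of the 23 genes held a peak in replicate 2 and 6 in replicate 3. That count takes any such peak in a gene. Of the IDR peaks, those in EcR, Eip75B and Eip78C and 1 of the 2 in Hr4 were among the strongest of both replicates. None in tai, Eip74EF or Eip63E was.

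The peaks lay in receptor, coactivator and early-gene loci. EcR, the ecdysone receptor gene itself, had a peak of 64.9 in intron 4 of its transcript, with 28.1 in replicate 2 and 36.0 in replicate 3. The coactivator gene tai, which is also in the list of developmental transcription factor genes below, had 2 peaks, of 53.0 and 49.0. The early-induced nuclear receptor gene Eip75B had a peak of 202, with 114 in replicate 2 and 86.2 in replicate 3. It lay in intron 3, of 65240 bp, 12099 bp from the nearest TSS. Eip78C, another ecdysone-induced nuclear receptor gene, had one of 157, with 98.6 in replicate 2 and 45.8 in replicate 3. The nuclear receptor gene Hr4 had 2 peaks, of 126 and 69.7, in its second intron. The ETS factor gene Eip74EF had 2 of 52.7 and 45.1, neither of them among the strongest of both replicates. Eip63E, a cyclin-dependent kinase relative, had one of 61.1, with 39.4 in replicate 2 and 9.42 in replicate 3. The 7 genes thus spanned the strongest and the weakest parts of the intronic list.

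Genes of the Wnt, Hedgehog, Notch and BMP pathways had 12 peaks in 8 of 46 genes (17.4%), or 14.3 per Mb, where genes of like size would hold 3.99. Of the 8, 5 act in BMP signalling. The ligand gene dpp had a peak of 66.1, with 40.3 in replicate 2 and 29.0 in replicate 3. The receptor genes wit and tkv had peaks of 141 and 44.9, and the gene for the inhibitory Smad, Dad, had one of 63.0. The nuclear factor gene shn had 3, as described above. Outside BMP, the Wnt receptor gene fz had 2 peaks of 109 and 46.1, mam had 2 of 48.7 and 45.2, and Wnt10 had one of 48.3. Lists were matched by exact symbol, so the peak in Delta, a Notch ligand gene, with a signal of 52.3, is not in that count.

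Receptor tyrosine kinase and MAP kinase genes had 10 peaks in 6 of 49 genes (12.2%), or 13.1 per Mb, where genes of like size would hold 4.26. Of the 10, 4 were those of Raf. Ptp61F had a peak of 87.6, puc, the gene for a phosphatase that acts on JNK, one of 77.4, and Btk, a Tec-family kinase gene, 2 of 73.5 and 55.7. The remaining hosts of that list were Ptp10D, a receptor tyrosine phosphatase gene, and drl, a gene for a receptor of the Ryk family. Of the 6 GATA factor and cofactor genes only ush held an intronic peak (16.7%, against 2.97% of all genes). It held 2 peaks, where all 6 genes by size would hold 0.513. With so few by size, no peak in the other genes of that list says little.

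Insulin and TOR genes held 2 peaks in 2 of 20 genes (10%, against 2.97% of all genes), InR and ImpL2, where genes of like size would hold 0.754. Both peaks were low in replicate 3, with log2 ratios -2.12 and -1.89 relative to the median over intronic peaks, and no gene of that list held one among the strongest peaks of replicate 3 alone. Lipid, sugar and energy metabolism genes held 3 peaks in 3 of 51 genes (5.88%), or 17.8 per Mb, where genes of like size would hold 1.11. They were LpR2, a lipophorin receptor gene, with 117, Lsd-2, a lipid droplet protein gene, with 64.7, and Pepck2, a phosphoenolpyruvate carboxykinase gene, with 56.1.

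Neuronal and structural gene groups with long introns were sparsely bound for their size. Cell adhesion and axon guidance genes had 10 peaks in 7 of 119 genes (5.88%), or 2.21 per Mb, where genes of like size would hold 19.9. Of those peaks, 3 were in kirre and 2, of 51.7 and 47.7, in the integrin gene mew. The others lay in beat-Ib with 54.7, in the Netrin receptor gene fra, in the guidance ligand genes sli and NetB and in Ten-a. Ion channel and neurotransmitter receptor genes had 4 peaks in 3 of 73 genes (4.11%), 2 of them in the potassium channel gene Irk1, with 85.2 and 74.6, and one each in Shal and nAChRalpha3. That was 2.52 per Mb, where like-sized genes would hold 7.95. Cytoskeleton, polarity and muscle genes had 7 peaks in 6 of 86 genes (6.98%), or 2.36 per Mb against 12.6 by size. The strongest were in trio, sdt, pyd and RhoGAP19D, with signals between 64.9 and 86.8.

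Developmental transcription factor genes were closer to the density of their size. They had 17 peaks in 13 of 105 genes (12.4%), where like-sized genes would hold 11.7, at 7.20 per Mb. The strongest were in Trl with 137, CHES-1-like with 124, fru, a gene of the sex determination pathway, with 77.9, and sima, the hypoxia-inducible factor gene, with 73.3. RNA-binding and splicing genes had 6 peaks in 6 of 46 genes (13.0%), where 6.64 would fall by size. Their strongest were in heph, pum, mbl and mub, with signals between 63.3 and 71.3. Cytoplasmic ribosomal protein and midgut digestive enzyme genes held no intronic peak, in 22 and 12 genes with eligible sequence. At the density of their size 0.0566 and 0.0244 peaks would fall there, so binding like that of other genes was not detectable in so little sequence.

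GATA words were somewhat more frequent at the intronic summits than in other intronic sequence. Within 100 bp of the summit, 106 of the 250 peaks had a WGATAR match on either strand (42.4%, Wilson 95% interval 36.4 to 48.6%). The share was 40.9% at promoter peaks, a difference of 1.50 points (-5.35 to 8.50). It was 31.7% at intronic candidates outside the list, 10.7 points less (4.71 to 17.0), and 31.5% over windows of the same length tiled across the eligible sequence, 10.9 points less (4.95 to 17.1). The members had a median GC content of 36.8%, against 40.3% for the tiled windows, and at the GC content of the members the shares of tiled windows and candidates were 35.0% and 34.6%. In the windows centred 1 kb to either side of the same summits it was 33.4% (29.4 to 37.6%).

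Matches near the summit were more frequent than between 100 and 500 bp away, and single bins farther out came near the level at the summit. The rate was 2.74 per kb within 100 bp, 1.92 per kb between 100 and 500 bp and 2.32 per kb between 500 and 1000 bp. By bins of 50 bp, the first held 2.96 per kb and the second 2.52, while the bin at 850 to 900 bp held 2.84 and that at 500 to 550 bp 2.76. Promoter peaks had 2.85, 1.87 and 1.91 per kb at the same distances, and intronic candidates outside the list had 2.09, 1.97 and 1.99. Where a peak had a match, the nearest lay a median of 33.5 bp from the summit, and within 25 bp in 45 peaks. The peaks in simj, a gene of the NuRD chromatin complex, and in Pka-C3, a cAMP-dependent kinase gene, had the most matches, 3 each, with signals of 78.9 and 60.8. Median signal was 60.4 in the 144 peaks with no match 63.8 in the 80 with 1 and 65.3 in the 24 with 2.

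**Figure D5:**
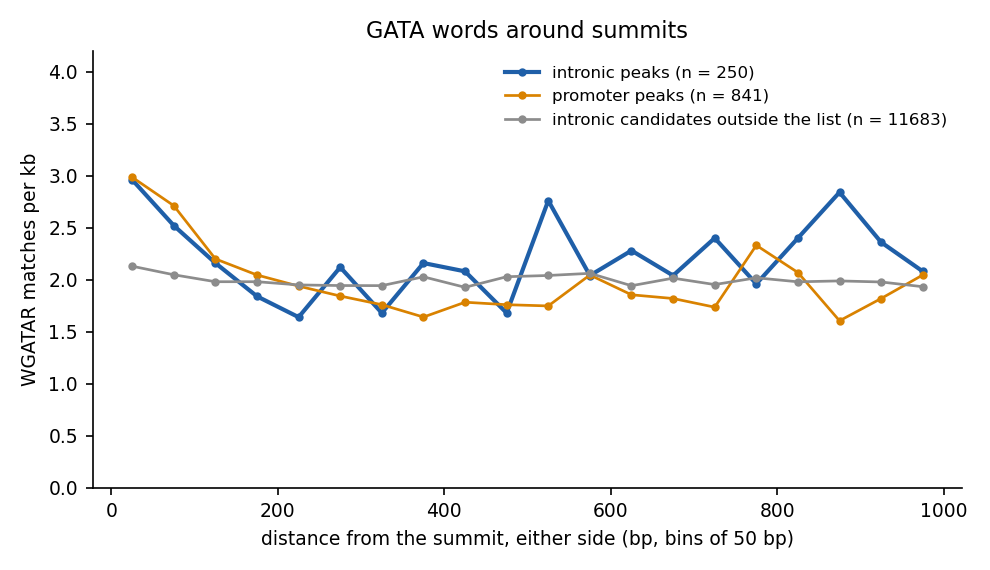
WGATAR matches per kb on both strands by distance from the summit, in bins of 50 bp, for intronic peaks, promoter peaks and intronic candidates outside the list. The first bin held 2.96 matches per kb at intronic peaks, 2.98 at promoter peaks and 2.13 at candidates.

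Of the 4 forms of the word, AGATAA had an interval of the difference between intronic and promoter peaks that left out 0. It was found at 18% of intronic and 11.5% of promoter summits, a difference of 6.47 points (1.60 to 12.1). AGATAA was at 14.6% of intergenic summits, where the difference was 3.44 points (-5.70 to 11.1). TGATAA was found at 18.8% of intronic and 22.6% of promoter summits, a difference of -3.79 points (-9.05 to 2.16). The differences were -1.82 points (-4.69 to 2.00) for TGATAG and -0.0533 points (-3.30 to 4.14) for AGATAG. The DRE word TATCGATA, a core promoter element of flies bound by the factor Dref, was at 0 of 250 intronic summits and at 8.09% of promoter summits. That count of 0 allows a share of up to 1.2% at 3 counts of 250, or 1.51% by the Wilson interval, and tiled intronic windows of like GC content had 0.564%. TGASTCA (S is C or G), the word of AP-1 factors, was at 4.4% of intronic summits, 2.02% of promoter summits and 1.79% of tiled windows of like GC content. GAGAG, the word of the GAGA factor, was at 28.4% of intronic and 23.8% of promoter summits, and at 19.3% of such tiled windows. The E-box CAGCTG was at 10% of intronic summits, 15% of promoter summits and 5.88% of such windows. Of the control words, CCWGG was at 11.2% of intronic summits and 14.9% of tiled windows of like GC content, and GTACGT at 2% and 3.32%. The 14 words share bases and windows, and their intervals are not adjusted for their number.

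Some intronic peaks lay at annotated non-coding features. The summit was within 1 kb of a TSS of a non-coding gene in 14 peaks (5.6%, 3.36 to 9.18%), against 2.49% of the eligible sequence. Among these were peaks named above, in Hipk at 70 bp, puc at 100 bp and LpR2 at 143 bp. Others were the Raf peak of 103 at 166 bp, osa at 715 bp and Zw at 856 bp. The summit was in an exon of a non-coding gene in 5 peaks (2%, 0.857 to 4.60%), osa and LpR2 among them, against 0.968% of the sequence. It was in an annotated transposable element in 1 peak (0.4%, 0.0706 to 2.23%), while such elements made up 7.18% of the sequence.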

How the data were processed

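Chromatin immunoprecipitation with sequencing was run on 2 replicates of GATAd-GFP larvae. The authors deposited peak lists on dm6 and dm3: 30000 candidates for each replicate and for the pool, and the list that passed IDR. The signal is the authors' deposited value of column 7. The sources used here give neither its scale nor the aligner, peak caller or IDR threshold. Lists need not share a scale. Read depth is unknown, so intervals cover the counting of peaks only. Replicates pooled by the authors give 1 list, no group comparison exists and no test was made. Only dm6 was used.

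Summits were placed on Ensembl release 115 of BDGP6. Where several transcripts cover a summit, the one with the longest spliced length set the intron. Where several genes do, as at 10 summits, the one with the shortest intron is the host. Expected peaks by size multiply a gene's eligible sequence by the density of its size class. Shares at like GC content weight bins of 2.5 points by the members. Of 664 symbols and patterns in the 13 lists, 18 matched no gene. The peaks and lists were chosen with earlier results of these data known. Hosts were named from the 25 strongest peaks, genes with 3 or more, the 5 extreme ratios toward each replicate, the 3 longest and shortest introns, the 3 peaks with most matches, both sides of the 1 kb limit, and up to 4 genes a list. Named beyond that rule, after their values were seen, are further hosts of the lists described, and Delta. Alternatives changed the distance, annotation, strength, position, transcript, window, overlap and replicates. Scripts ran in Python 3.11.15 with numpy 2.4.6, pandas 2.3.3 and statsmodels 0.14.6, and were tested on simulated data.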

Additional observations from a re-analysis of the deposited data

How the results depend on the processing

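Of 75 values recomputed under alternatives, 64 stayed within 1.5 times the value given (counts) or within its 95% interval. At 500 bp from a TSS in place of 1 kb, the median host intron was 12383.5 bp and 38.1% of hosts had a peak at their own promoter. That share counts peaks between 500 bp and 1 kb on both sides. At 2 kb the median host intron was 18998 bp and the share in first introns 45.9%. With only the 602 strongest peaks of the IDR list, which are fewer and stronger by construction, 106 intronic peaks were left. Their median signal was 87.7, 86.8% were among the strongest of both replicates, the median host intron was 13091 bp and 9 genes held 2 or more. WGATAR was at 27.6% of summits in windows of 50 bp each side and at 59.6% in windows of 200 bp, as longer windows hold more sequence. With 1 replicate left out, 231 to 274 intronic peaks were found and the first-intron share was 50.6 to 51.8%. The median signal and the share in both replicates have no value without a replicate. No paired analysis was possible because there is 1 group. The X share, the own-promoter share and the lists by replicate were tried after the data were seen. Unknown depth limits all of these values.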

Other observations

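The share of intronic peaks with a WGATAR match varied with the length of the host intron. It was 55% of 40 peaks in introns of 5 to 10 kb, 50.8% of 63 in introns of 10 to 20 kb, 28.4% of 67 in introns of 20 to 50 kb and 37.5% of 32 in introns over 50 kb. It was 43.8% of 48 peaks in introns under 5 kb. The bins were chosen after earlier results of these data were known, and the difference was not tested. By arm, the share ran between 35.6% on 2R and 54.1% on 3L.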
